A study of Mus musculus with 4 samples.

Results

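Endothelial and vessel-associated genes were examined in hair follicle stem cells sorted from mouse back skin. The 34 genes, listed by name, comprise 32 genes known from the cells that line blood and lymph vessels or from the blood surface they face, and 2 genes of the mural cells that wrap small vessels. All 34 were found among the 12384 genes with a probe set of their own on the array, and the brightest probe set on average stood for each gene. The genes were chosen with their levels and their difference between genotypes in view, so that difference is described here without a test.

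Tbx1, a T-box transcription factor gene, was conditionally knocked out in the cells of 2 arrays (cKO), and 2 further arrays held wild type cells (WT). All animals were female, of mixed CD1/C57BL/6 background and about postnatal day 60. In both genotypes, wax depilation of the back 48 h before harvest is described, and cells were sorted on CD34, integrin α6 and the yellow fluorescent protein YFP. Titles number 1 cKO and 1 WT array as set 1 and the others as set 2, and a second label calls set 1 quiescent and set 2 activated, which the treatment text does not settle. The sources used here do not name the Cre driver of the knockout, the source of YFP or the number of animals per array. Separate animals for arrays of 1 genotype are not stated either, so the spread that p-values measure is only that between these samples and may be technical. Precision is limited by having 2 arrays per genotype, for which the smallest p of an exact permutation test is 0.333.

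Endothelial cells form the inner wall of vessels. They are held together by VE-cadherin, PECAM-1 and claudin junctions, they sense VEGF and angiopoietins through receptor tyrosine kinases, and those of venules display selectins that slow passing leukocytes. Mural cells sit outside this layer. In skin a vessel plexus lies close to the follicle's bulge, where its stem cells reside. CD34 and integrin α6, used here to sort bulge keratinocytes, are also carried by many endothelial cells.

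The labelled cell type was borne out by the high levels of keratinocyte genes on all arrays. Each of 13 bulge and basal keratinocyte genes, among them Krt15, Lgr5, Lhx2 and Sox9, lay on all 4 arrays above the 40th percentile of all probe sets. That percentile, a log2 intensity of 5.40, is used throughout as the limit for dim signal, because the deposited values carry no detection call. Passing it says little by itself, as 7877 to 8076 of all 12384 genes did so on each array. The lowest value of the 13 genes was 8.54, for Nfatc1 on the cKO set 2 array. Krt15 read 13.39 to 13.94 and Lgr5 10.70 to 11.09. The arrays had near-equal median log2 intensities of 6.36 to 6.38. The WT set 2 array stood apart in the nuclear noncoding RNA Malat1, which read 12.35 there and 9.80 to 10.56 on the others. The cKO set 1 array stood apart in the added control transcript Dap, whose 3′ minus 5′ difference was 2.95 there and 1.74 to 1.82 on the others. The part of either feature in the vessel gene results was not tested. Tbx1 read 9.54 and 8.88 on the cKO arrays of set 1 and set 2 and 10.53 and 10.37 on the WT arrays. Whether its probe set lies in the deleted stretch is not known here, so the lower values check the labels only in part.

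Most vessel-associated genes read lower in cKO than in WT. Of the 34 genes, 24 (70.6%) had both cKO arrays below both WT arrays, against 16% of all genes, and 3 had both cKO arrays above both WT arrays, against 28.9% of all genes. The other 7 overlapped between genotypes. Within both sets 25 genes were lower in cKO, against 22.9% of all genes. At least 1.5-fold lower values within both sets were found for 19 genes (55.9%), against 1.32% of all genes, and at least 1.5-fold higher values for 0, against 2.2%. These shares restate the contrast on which the genes were chosen and support nothing by themselves. The median difference, cKO minus WT, was -0.98 on the log2 scale, -1.01 in set 1 and -0.90 in set 2, against 0.05 over all genes. In a bulk sample, fewer cells of a type and less RNA per cell cannot be told apart.

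**Figure D1:**
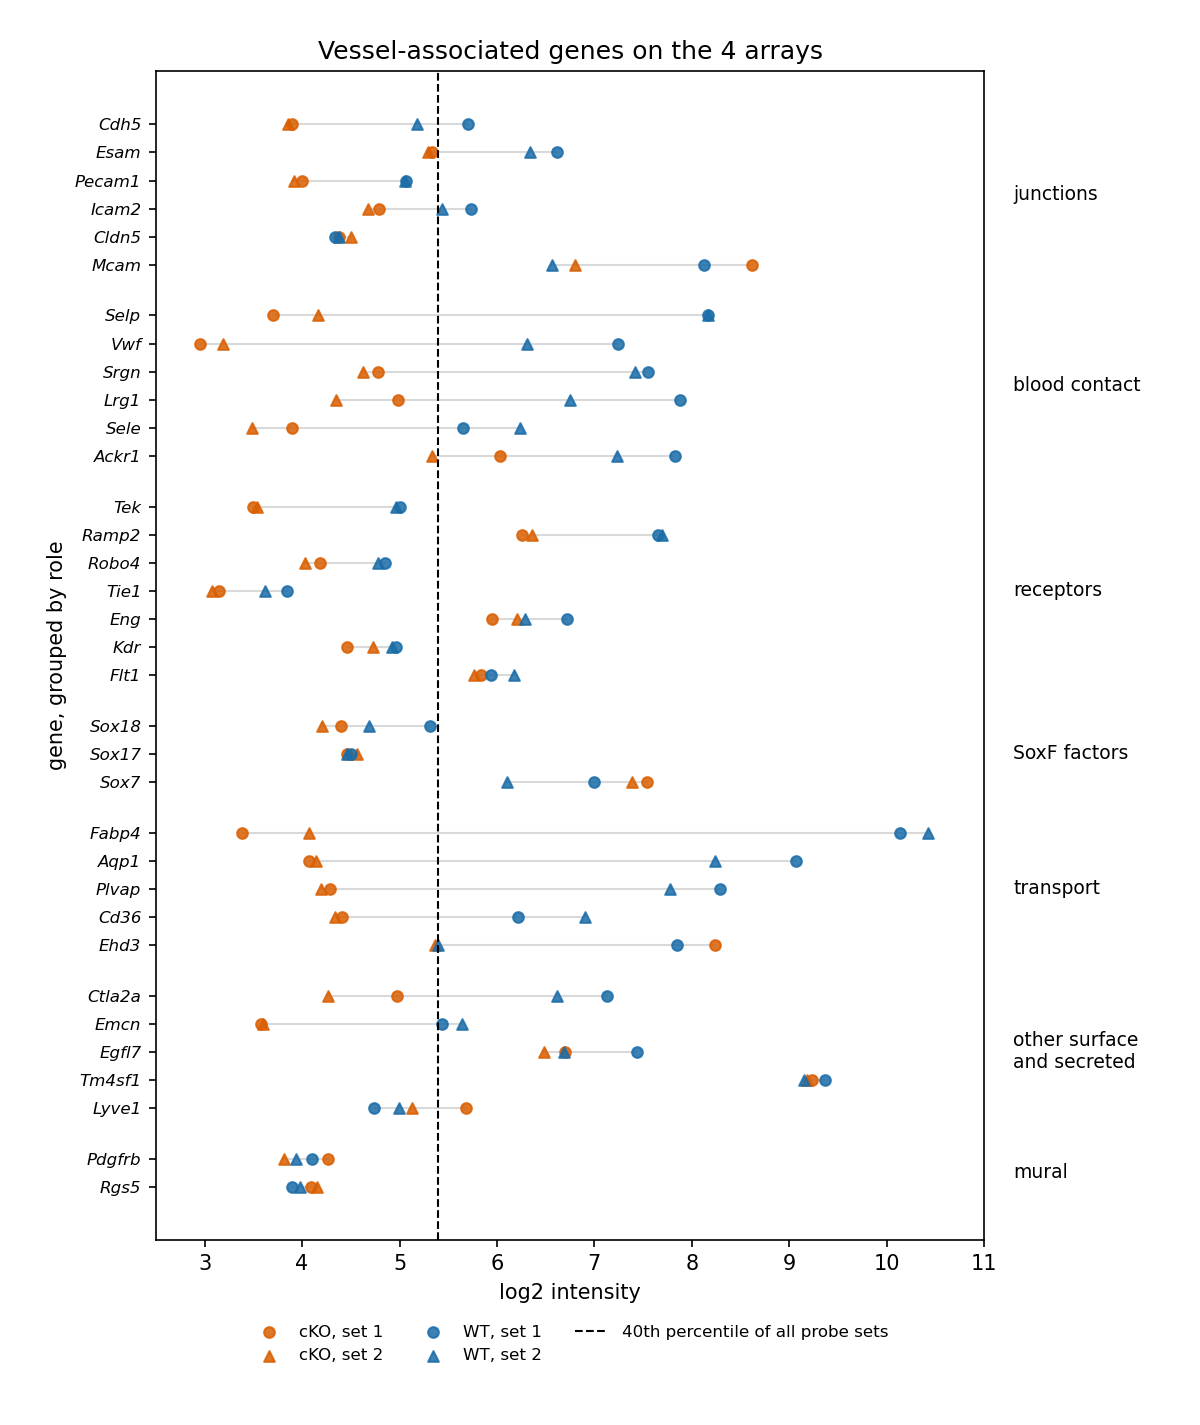
Log2 intensity (horizontal axis) of each of the 34 vessel-associated genes (vertical axis, grouped by role) on each array. Orange marks are cKO arrays, blue marks WT arrays, circles set 1, triangles set 2, and the dashed line is the 40th percentile of all probe sets (5.40). Fabp4, Aqp1, Selp, Plvap and Vwf show the widest gaps between genotypes, and the cKO marks of all 5 lie left of the line.

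Against the limit, 13 genes (38.2%) lay at or above it on both WT arrays and below it on both cKO arrays, a pattern shown by 0.258% of all genes. These were Fabp4, Aqp1, Plvap, Cd36, Selp, Sele, Vwf, Srgn, Lrg1, Emcn, Ctla2a, Esam and Icam2. A further 7 genes lay above the limit on all 4 arrays and 10 lay below it on all 4. The remaining 4, Ackr1, Cdh5, Ehd3 and Lyve1, crossed it in other ways. Inside the pattern, the single WT array nearest to the limit was that of Icam2 in set 2, which read 5.73 and 5.43 on the WT arrays of set 1 and set 2. Just outside it, Cdh5 read 5.70 and 5.18 there. On the WT arrays of set 1 and set 2, 23 and 21 of the 34 genes lay at or above the limit, and on the cKO arrays 10 and 7. Over all 12384 genes the count was 7877 to 8076 on each array. The mean over the 4 arrays reached the limit for 18 of the 34 genes, against 8031 of all 12384. Signal below the limit, a linear intensity of 42.2, runs down to the lowest deposited value of 5.29, and differences are compressed towards the low end.

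Genes of transport across the vessel wall held the widest differences. Fabp4, a fatty acid carrier of capillary endothelium and fat cells, read 10.13 on the WT set 1 array and 10.42 on the WT set 2 array, and 3.38 and 4.07 on the cKO arrays. Both WT arrays were high and both cKO arrays dim, with means of 10.28 ± 0.21 and 3.73 ± 0.49 (SD, n = 2). Its measured level in WT was 93.8 times that in cKO and 29.5 times the limit. Where both cKO arrays lie below the limit, as here, the ratio to the limit is the one that does not rest on the dim values. Of its 4 probe sets, a further one differed by -5.56 and -5.94 within the sets, while the remaining probe sets lay between 3.11 and 4.60 on every array and differed by -0.11 to -0.66.

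Aqp1, a water channel of many capillaries and of red blood cells, read 9.07 and 8.24 in WT and 4.07 and 4.14 in cKO. The measured means differed 23.4-fold, with no overlap, and WT lay 9.54 times above the limit. Plvap, which forms the diaphragms of fenestrae and caveolae, read 8.29 and 7.78 in WT and 4.29 and 4.19 in cKO. The measured means differed 13.8-fold, and WT lay 6.20 times above the limit. Cd36, a fatty acid receptor of microvessels, macrophages and platelets, read 6.22 and 6.90 in WT and 4.41 and 4.34 in cKO. Ehd3, a membrane trafficking protein known from the fenestrated endothelium of the kidney, did not follow the other genes of this role. It read 7.85 and 5.40 in WT and 8.24 and 5.37 in cKO, so that its arrays split by set and overlapped between genotypes.

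Proteins that meet the blood and its leukocytes were the only role in which every gene had both cKO arrays at least 1.5-fold below the WT array of their set. Selp, the P-selectin of endothelial and platelet granules, read 8.17 on both WT arrays and 3.70 and 4.16 on the cKO arrays. Its measured WT level was 18.9 times its cKO level and 6.82 times the limit, and a further probe set differed by -3.67 and -3.81 within the sets. Sele, the inducible E-selectin of activated endothelium, read 5.65 and 6.24 in WT and 3.90 and 3.49 in cKO. Vwf, the von Willebrand factor stored beside P-selectin, read 7.24 and 6.30 in WT and 2.96 and 3.18 in cKO. The measured means of Vwf differed 13-fold, but WT lay only 2.60 times above the limit. No pair of arrays of these genes overlapped between genotypes.

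Srgn, the granule proteoglycan serglycin, read 7.55 and 7.42 in WT and 4.78 and 4.62 in cKO. The difference was -2.77 in set 1 and -2.80 in set 2. Lrg1, a secreted leucine-rich glycoprotein, read 7.88 and 6.75 in WT and 4.99 and 4.34 in cKO. Ackr1, the chemokine-binding receptor of venular endothelium, read 7.83 and 7.23 in WT and 6.03 and 5.33 in cKO. Ackr1 was lower on both cKO arrays, but the cKO set 1 array stayed above the limit.

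Promoter sequences of Aqp1, Selp and Sele are shown because Aqp1 and Selp had the widest differences among genes in the promoter table, and because Sele, a neighbour of Selp on chromosome 1, was added as its relative after its values were seen. Each runs 5′ to 3′ over 250 bases up to the annotated start of the gene, from RefSeq in the build GRCm38.p6. Capitals mark matches to AGGAAG, a core that ETS factors bind, on either strand, and to TATAAA.
Aqp1, chr6:55336049-55336298, plus strand: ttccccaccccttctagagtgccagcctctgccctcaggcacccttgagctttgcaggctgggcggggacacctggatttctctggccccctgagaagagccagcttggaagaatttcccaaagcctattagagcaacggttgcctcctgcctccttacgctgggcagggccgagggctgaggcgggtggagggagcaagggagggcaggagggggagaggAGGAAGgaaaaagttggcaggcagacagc
Selp, chr1:164115014-164115263, plus strand: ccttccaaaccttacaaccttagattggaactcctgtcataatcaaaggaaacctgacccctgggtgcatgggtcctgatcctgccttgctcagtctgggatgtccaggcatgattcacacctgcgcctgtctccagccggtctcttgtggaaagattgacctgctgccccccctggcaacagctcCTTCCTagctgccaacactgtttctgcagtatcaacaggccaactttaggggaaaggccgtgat
Sele, chr1:164047984-164048233, plus strand: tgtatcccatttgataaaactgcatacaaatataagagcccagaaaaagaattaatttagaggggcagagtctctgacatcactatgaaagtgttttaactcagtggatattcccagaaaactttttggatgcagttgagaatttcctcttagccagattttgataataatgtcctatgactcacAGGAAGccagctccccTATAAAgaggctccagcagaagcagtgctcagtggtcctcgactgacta

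Of the 34 genes, 21 had a promoter in the table, in 25 windows. AGGAAG or its reverse complement was found in 13 of the 21 genes and in 14 of the 25 windows (56%), against 29.5% of all 32851 windows of the same length. The 13 genes were Ackr1, Aqp1, Ctla2a, Egfl7, Emcn, Eng, Flt1, Lrg1, Robo4, Sele, Selp, Tie1 and Tm4sf1. They include Tm4sf1, which hardly differed between genotypes, and 2 of the windows hold the same gene, Egfl7. TATAAA was found in 4 genes (20% of windows, against 12.4% of all). AGATAA, bound by GATA factors, was found in 2 genes (8% of windows, against 9.99%), and ACAATG, bound by SOX factors, in 1 (4%, against 10.7%). A single narrow form of the NF-κB motif was found in 0 of the windows, against 1.41% of all. Other forms were not searched, so NF-κB motifs in Sele or the other genes may have been missed. All motifs were searched on both strands. A match is a description of the letters and no evidence of binding.

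Junction and adhesion genes differed less, and unevenly. Cdh5, the VE-cadherin of endothelial junctions, read 5.70 and 5.18 in WT and 3.90 and 3.86 in cKO, without overlap, while its dimmer probe set differed by only 0.16 and -0.01. Pecam1, the platelet and endothelial adhesion molecule, read 5.07 and 5.05 in WT and 4.0 and 3.91 in cKO, all below the limit. Esam, an adhesion molecule of endothelial tight junctions, read 6.62 and 6.34 in WT and 5.33 and 5.29 in cKO. These 3 genes kept the order of the genotypes in both sets.

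Icam2, a leukocyte ligand of resting endothelium, differed by -0.95 in set 1 and -0.75 in set 2. Cldn5, the claudin of endothelial tight junctions, read 4.34 and 4.38 in WT and 4.38 and 4.50 in cKO, below the limit on every array and with overlap. Mcam, an adhesion molecule of endothelium, smooth muscle and melanocytes, read 8.12 and 6.57 in WT and 8.61 and 6.80 in cKO. Like Ehd3 it split by set and overlapped between genotypes.

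Receptor genes were lower on both cKO arrays in all 7 cases, but only Tek, Robo4 and Ramp2 by at least 1.5-fold within both sets. Kdr, Tek, Tie1 and Robo4 lay below the limit on all 4 arrays, where the order of values is uncertain. Tek, the angiopoietin receptor Tie2, read 5.01 and 4.97 in WT and 3.50 and 3.54 in cKO, all below the limit. Ramp2, the accessory protein with which endothelium senses adrenomedullin, read 7.66 and 7.69 in WT and 6.25 and 6.36 in cKO. Ramp2 was thus lower in cKO while remaining above the limit on all 4 arrays. Robo4, an endothelial guidance receptor, differed by -0.67 and -0.75, and Tie1, the relative of Tek, by -0.71 and -0.54.

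The VEGF receptors showed the smallest differences of this role. Kdr, the main signalling receptor for VEGF, read 4.97 and 4.92 in WT and 4.46 and 4.72 in cKO. Flt1, a decoy-like VEGF receptor, read 5.94 and 6.17 in WT and 5.84 and 5.77 in cKO, while its other probe sets differed by 0.06 and 0.22 and, for the dimmest, by -1.20 and -0.68. Eng, the TGF-β coreceptor endoglin, read 6.72 and 6.29 in WT and 5.95 and 6.21 in cKO, and its dimmer probe set differed by -1.77 and -0.74. The size of the difference of Flt1 and Eng therefore rested on the probe set.

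The SoxF transcription factors, which act together in endothelial and lymphatic development, went different ways. Sox18 read 5.31 and 4.68 in WT and 4.40 and 4.20 in cKO, below the limit throughout and lower on both cKO arrays. Without the WT set 1 array its difference was -0.38, and over all arrays -0.70. Sox17 read 4.51 and 4.46 in WT and 4.46 and 4.56 in cKO, dim and overlapping, while its dimmer probe set differed by -0.37 within both sets. Sox7 read 7.0 and 6.11 in WT and 7.54 and 7.39 in cKO, so that both cKO arrays lay above both WT arrays. The WT set 2 array, which stood apart in Malat1, held its lowest value. Without that array the difference of Sox7 was 0.47, and over all arrays it was 0.91.

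Among the remaining surface and secreted proteins, Emcn, a sialomucin of venous and capillary endothelium, read 5.44 and 5.64 in WT and 3.57 and 3.60 in cKO. Ctla2a, a protease inhibitor relative that endothelium expresses, read 7.13 and 6.61 in WT and 4.97 and 4.27 in cKO. Both were lower on the 2 cKO arrays by margins wider than the spread between arrays of a genotype. Egfl7, a secreted endothelial matrix protein and host of miR-126, read 7.43 and 6.68 in WT and 6.70 and 6.49 in cKO, with overlap.

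Tm4sf1, a tetraspanin-like protein that epithelial cells also make, read 9.37 and 9.15 in WT and 9.23 and 9.18 in cKO. Lyve1, the hyaluronan receptor of lymphatic endothelium and some macrophages, read 4.74 and 4.99 in WT and 5.68 and 5.13 in cKO, higher on both cKO arrays. The mural cell genes Rgs5, a regulator of G protein signalling in pericytes, and Pdgfrb, the PDGF receptor that recruits them, lay below the limit on all 4 arrays. Rgs5 differed by 0.19 and 0.18 and Pdgfrb by 0.16 and -0.12 within set 1 and set 2, and its arrays overlapped.

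**Figure D2:**
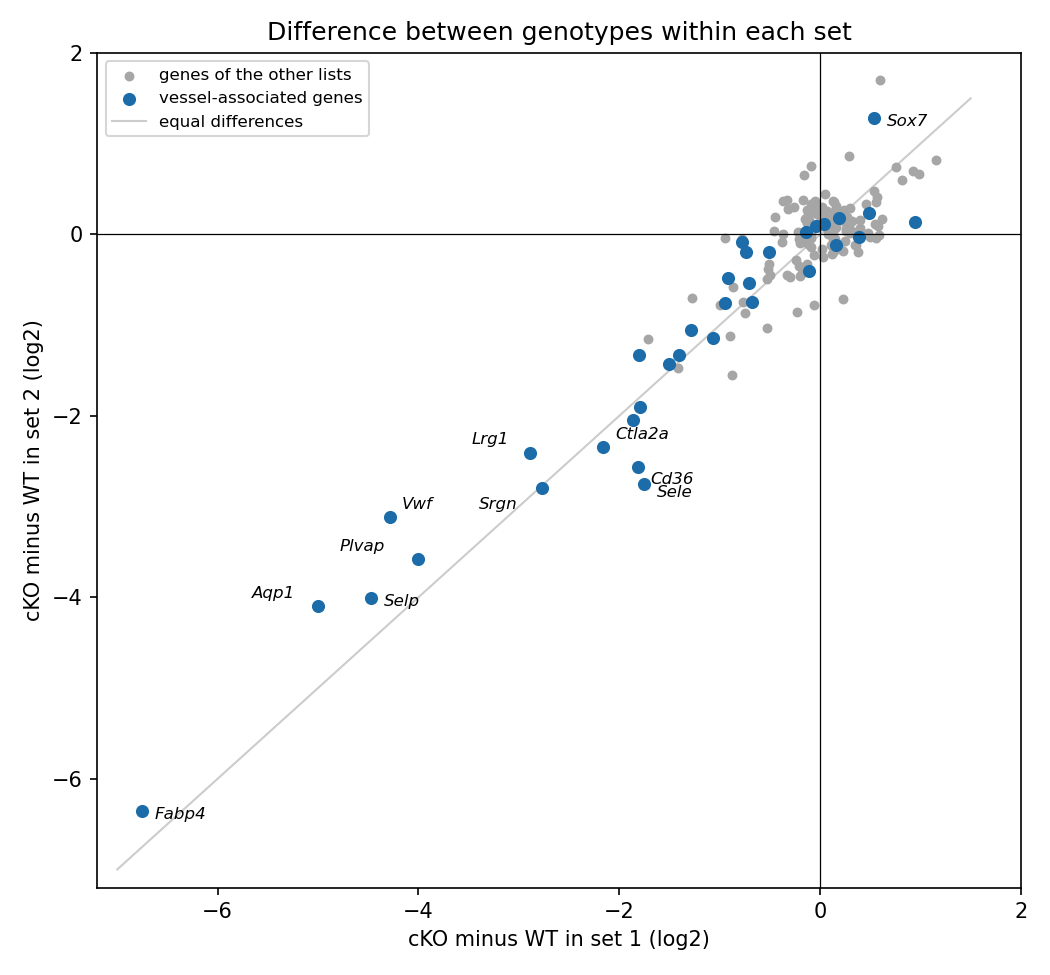
Difference between cKO and WT (log2) within set 1 (horizontal axis) against that within set 2 (vertical axis). Each blue point is 1 vessel-associated gene, each grey point 1 gene of the other lists, and the grey line marks equal differences. Fabp4 lies at -6.75 and -6.35, and Sox7 at 0.54 and 1.28.

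A value of -2 or lower within both sets, which is at least 4-fold lower, was found for 9 genes of the whole array (0.0727%). Of these, 8 were vessel-associated genes and the other was Il6, an inflammatory cytokine gene. Il6 read 9.21 and 9.38 in WT and 4.77 and 6.39 in cKO. Over the 55 probe sets of the 34 genes, 35 were lower within both sets, against 25.7% of all probe sets with 1 gene symbol. Of the 21 probe sets that were not used to represent a gene, 10 were lower within both sets, 5 of them by at least 1.5-fold, and 0 were at least 1.5-fold higher. The shares among all such unused probe sets were 30%, 2.09% and 0.865%. All counts of this paragraph restate the contrast on which the genes were chosen and support nothing by themselves.

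Leaving out both arrays that stood apart in Malat1 and Dap left 1 array of each genotype, from different sets. There 29 of the 34 genes were lower in cKO, against 46.3% of all genes, in a comparison chosen after seeing the data. The median difference was -1.31, against 0.02 over all genes. The 29 include Ehd3 and Mcam, at -2.48 and -1.32, whose arrays split by set, as genotype and set cannot be told apart there. The comparison also reuses the contrast on which the genes were chosen, so it does not test the part of Malat1 or Dap. Fabp4 differed by -6.06 there, Selp by -4.0, Aqp1 by -4.93 and Vwf by -4.06. Leaving out each array in turn gave medians of -1.17 to -0.86. The summed linear intensity of the 34 genes was 5696 and 4695 on the WT arrays of set 1 and set 2 and 2363 and 1717 on the cKO arrays.

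Other genes of vessels and of neighbouring cell types were then tested between genotypes with limma over all 12384 genes. Of 142 such genes on the array, 0 passed at a Benjamini-Hochberg adjusted p under 0.05, where 0.0484% of all genes passed as lower and 0.0161% as higher. At an unadjusted p under 0.05, limma gave 15 of the 142 (10.6%) as lower and 8 (5.63%) as higher, against 5.03% and 7.71% of all genes. Either direction took 12.7% of all genes. The lower genes were 8 of 33 other endothelial genes (24.2%), 4 of 24 vessel signalling genes (16.7%), and 1 each of the mural, macrophage and leukocyte, and keratinocyte lists. The higher genes were 2 (6.06%) and 2 (8.33%) of the first and second of these lists, 1 mural gene and 3 keratinocyte genes. With the set as a block limma also gave 0 of the 142, where 0.0323% of all genes passed as lower and 0% as higher. With a variance trend and robust fitting, limma called 1 of them, Ptprb, as lower (adjusted p = 0.0196).

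Vessel signalling genes had a median difference of 0.00 over 24 genes, and 3 of them (12.5%) were at least 1.5-fold lower within both sets, against 1.32% of all genes. In the other direction, 1 of them (4.17%) was at least 1.5-fold higher, against 2.2% of all genes. That gene was Vegfd, a VEGF family ligand, which read 5.75 and 5.64 in WT and 6.57 and 6.23 in cKO (difference 0.71, limma adjusted p = 0.25). Ptprb, the phosphatase that restrains VE-cadherin and Tie2 signalling, read 5.74 and 5.67 in WT and 4.32 and 4.19 in cKO. The difference of -1.45 (SE 0.13) did not pass limma's test (adjusted p = 0.0771). S1pr1, the sphingosine phosphate receptor that steadies endothelial junctions, read 5.91 and 5.82 in WT and 5.16 and 4.96 in cKO (limma adjusted p = 0.201). The third was Nrp1, a VEGF and semaphorin coreceptor, with a difference of -1.01 (limma adjusted p = 0.125), whose arrays lay below the limit.

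Other endothelial genes had a median difference of -0.04 over 33 genes. Of these, 12 (36.4%) had both cKO arrays below both WT arrays and 4 (12.1%) had both above them, against 16% and 28.9% of all genes. At least 1.5-fold lower within both sets were 4 (12.1%, against 1.32% of all genes), Gng11, Cd93, Nr2f2 and Sparcl1. Of these, Cd93, Nr2f2 and Sparcl1 lay below the limit on all 4 arrays. At least 1.5-fold higher within both sets was 1 (3.03%, against 2.2% of all genes). Gng11, a G protein subunit, read 6.45 and 6.99 in WT and 5.58 and 5.44 in cKO, a difference of -1.21 (SE 0.21, limma adjusted p = 0.201). Thbd, the thrombin receptor thrombomodulin that keratinocytes also make, went the other way. It read 7.71 and 6.43 in WT and 8.31 and 8.14 in cKO, a difference of 1.15 (SE 0.42, limma adjusted p = 0.37). Without the WT set 1 array it was 1.79 and without the WT set 2 array 0.51.

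Markers of other cell types, some of which share genes with this group, were read in the same way, and their part in the result was not tested. The macrophage and leukocyte list had a median difference of 0.10 over 15 genes, and its summed linear intensity was 421 to 532 on the WT arrays and 435 to 468 on the cKO arrays. The leukocyte genes Ptprc, Tyrobp and Adgre1 lay below the limit on every array, while Csf1r, at 5.74 to 6.01, and Fcer1g, at 5.52 to 5.71, lay above it on every array. Cd14, the lipopolysaccharide coreceptor, was the 1 gene of this list with both cKO arrays below both WT arrays, reading 7.13 and 6.38 in WT and 5.42 and 5.23 in cKO (difference -1.43, SE 0.27, limma adjusted p = 0.204). Cd74, the invariant chain of antigen presentation, differed by 0.58 (limma adjusted p = 0.506), by 1.01 without the WT set 1 array and by 0.15 without the WT set 2 array.

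Fat cell genes, tested because Fabp4 and Cd36 are also theirs, had a median difference of 0.15 over 11 genes, with summed linear intensities of 525 to 685 in WT and 650 to 707 in cKO. Adipoq, Pparg, Lep and Cidec lay below the limit on all 4 arrays, while Lpl, at 5.99 to 6.53, Slc2a4, at 5.91 to 6.46, and Cebpa, at 7.97 to 8.63, lay above it on all 4. Car3, a carbonic anhydrase, and Cebpa, a differentiation factor of fat cells and keratinocytes, both differed by 0.25. Platelet genes had a median of 0.12 over 9 genes, sums of 298 to 317 in WT and 340 to 366 in cKO, and Pf4, Ppbp and Gp9 below the limit throughout. Itga2b, the platelet integrin, at 6.97 to 7.52, and Treml1, a platelet receptor, at 5.49 to 5.61, lay above the limit on all 4 arrays. Itga2b differed by 0.29 and Treml1 by 0.06.

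The 4 red blood cell genes, Hba-a1 and Alas2 among them, and the 6 mast cell genes lay below the limit on every array. Their medians were 0.26 and 0.15. Lymphatic genes had a median of 0.07 over 4 genes, of which only Pdpn, podoplanin, exceeded the limit, with a difference of 0.16. The median of 13 other mural cell genes was 0.16. Of these, 2 (15.4%), Tagln and Mylk, had both cKO arrays below both WT arrays, against 16% of all genes. In 6 (46.2%) both cKO arrays lay above, against 28.9%. Tagln read 5.51 and 5.56 in WT and 4.98 and 5.07 in cKO (difference -0.51, limma adjusted p = 0.26). Among the 13, Anpep, an aminopeptidase of pericytes and fibroblasts, differed by 0.99 and Notch3, the mural Notch receptor, by 0.75. Neither passed limma's threshold (adjusted p = 0.192 and 0.445). Notch3 differed by 0.39 without the cKO set 1 array and likewise without the WT set 2 array.

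Fibroblast genes had a median of 0.02 over 10 genes, with Dcn, the collagen-binding decorin, at -0.42 and Col1a2, a collagen chain, at -0.14. The median of the 13 bulge and basal keratinocyte genes was 0.11. Foxc1, a factor of stem cell quiescence, and Col17a1, a hemidesmosome collagen, differed by 0.83 and 0.81 (limma adjusted p = 0.204 and 0.238). Lhx2 went the other way, reading 11.44 and 11.37 in WT and 10.92 and 10.99 in cKO (difference -0.45, limma adjusted p = 0.293). It was the 1 gene of the 13 (7.69%) with both cKO arrays below both WT arrays, against 16% of all genes. In 5 (38.5%) both cKO arrays lay above, against 28.9% of all genes. Cd34, a sorting marker, read 8.85 and 8.96 in WT and 9.46 and 9.13 in cKO, and Itga6 read 11.35 and 11.87 in WT and 11.85 on both cKO arrays. These last were chosen because the sort used them.

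**Figure D3:**
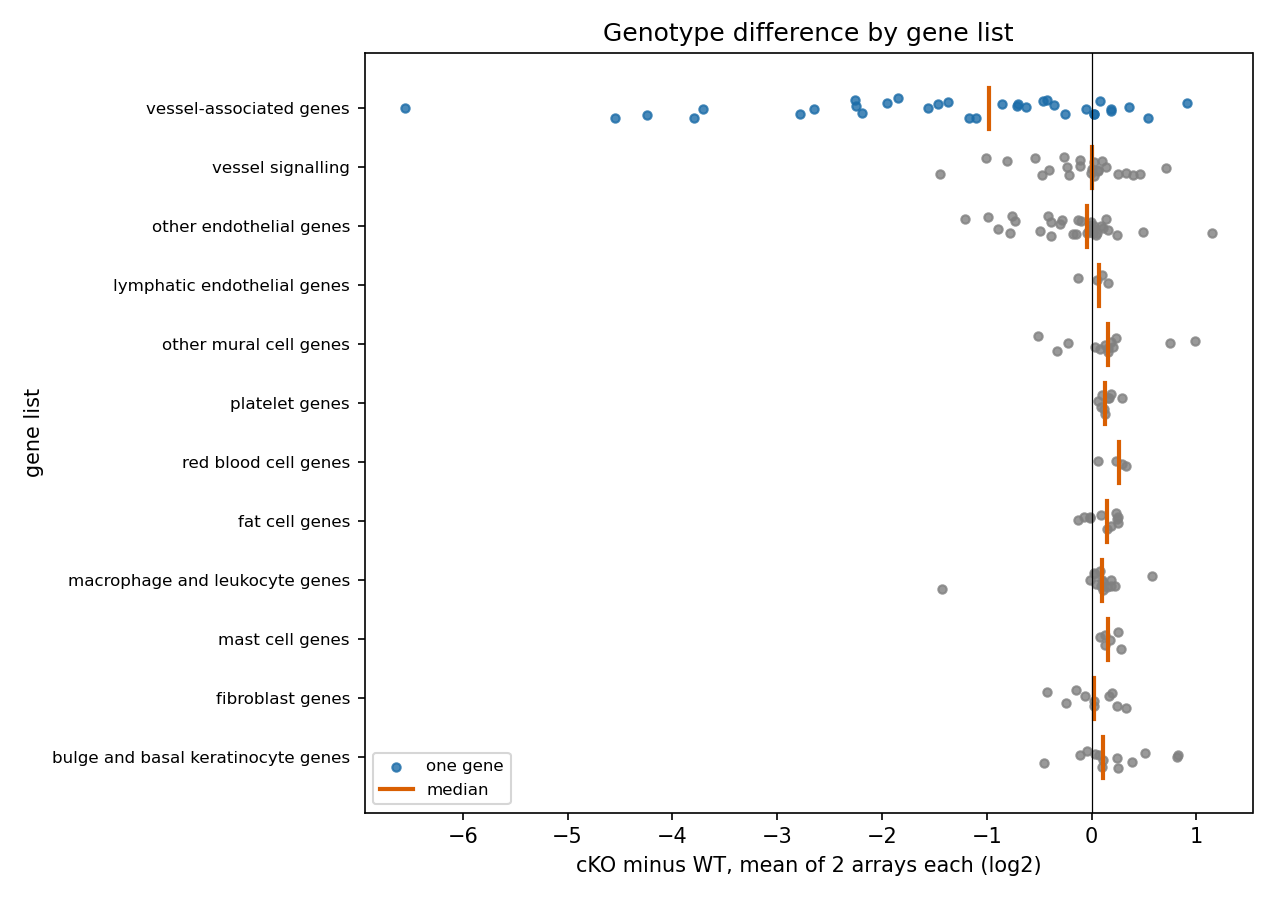
Mean difference between cKO and WT (log2, horizontal axis) of each gene, by gene list (vertical axis). Points are genes, blue for the vessel-associated genes and grey for the others, and the orange bar is the list's median, -0.98 for the vessel-associated genes. The other lists have medians from -0.04 to 0.26.

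The comparison of set 2 with set 1 was not the one on which the genes were chosen, so it was tested. The main model held no genotype term, so a wide genotype difference enlarged the SE, to 3.01 for Fabp4 and 2.10 for Aqp1. For such genes this test could hardly detect a difference between sets. Of the 34 genes, 0 passed limma's test at an adjusted p under 0.05, as did 0% of all genes in either direction. At an unadjusted p under 0.05, limma gave 2 of the 34 genes (5.88%) and 373 of all genes (3.01%). The median difference, set 2 minus set 1, was -0.15 for the 34 genes, -0.19 between the WT arrays and -0.07 between the cKO arrays, against -0.04 over all genes. With the genotype as a block limma also called 0 of the 34 genes and 0 of all genes. That model leaves 1 residual degree of freedom, so these counts do not show that differences between sets are absent.

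The 2 genes were Ehd3 and Mcam, whose values by array are given above. Ehd3 differed by -2.66 between sets (SE 0.18, limma adjusted p = 0.506), by -2.46 in WT and -2.87 in cKO. Mcam differed by -1.68 (SE 0.22, limma adjusted p = 1.00), by -1.56 in WT and -1.81 in cKO. Both were lower on both arrays of set 2 than on both arrays of set 1. Over the other settings the adjusted p ran from 0.274 to 1.00 for Ehd3 and from 0.436 to 1.00 for Mcam.

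Genes with wide genotype differences differed less between sets than Ehd3 and Mcam, but not less than every other gene. Over both genotypes Lrg1 differed by -0.88 and Fabp4 by 0.49, against 0.03 for Sox17 and 0.08 for Cldn5. Fabp4 differed by 0.29 between the WT arrays and by 0.69 between the cKO arrays, higher in set 2 in both. Aqp1 differed by -0.83 between the WT arrays, Vwf by -0.94 and Lrg1 by -1.13, each lower in set 2. Sele and Cd36 were higher in set 2 between the WT arrays, by 0.59 and 0.68. Selp differed by less than 0.01 between them. The sign of the difference between the WT arrays thus varied among these genes.

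**Figure D4:**
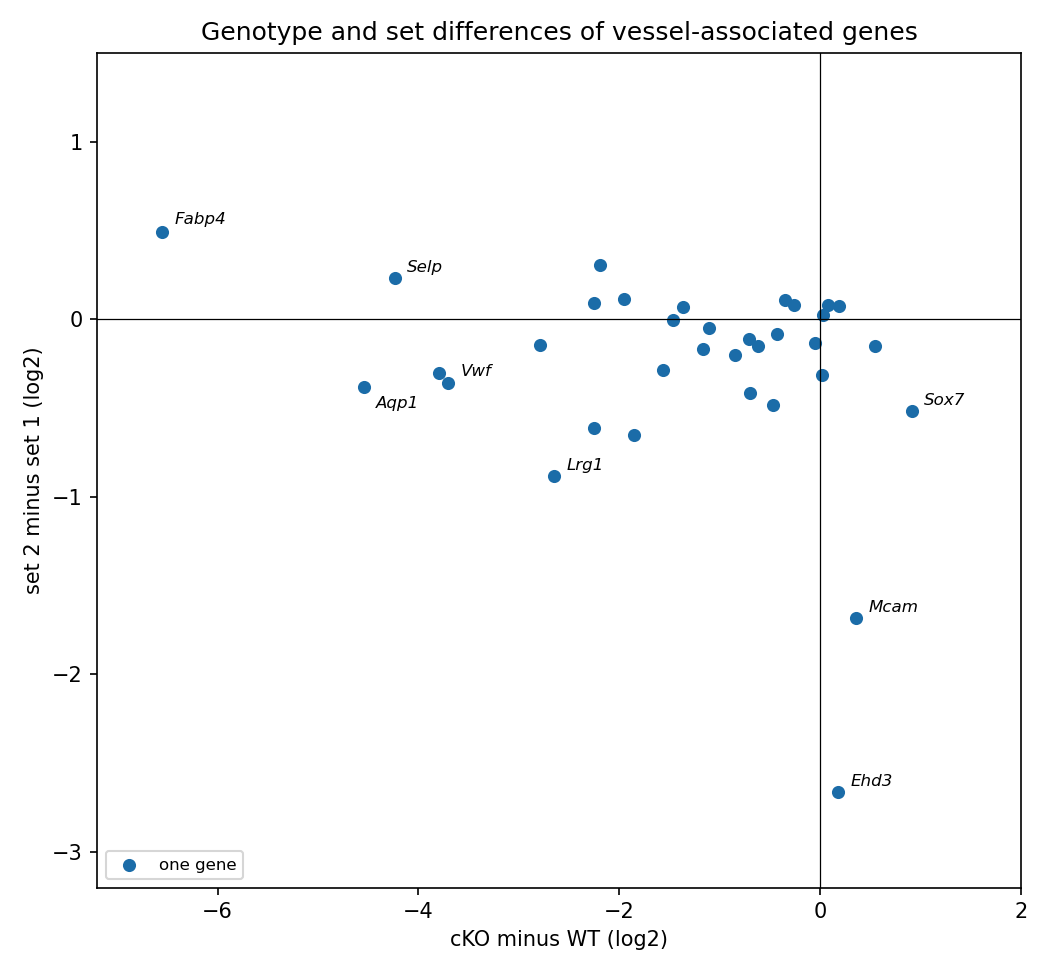
Difference between cKO and WT (log2, horizontal axis) against the difference between set 2 and set 1 (log2, vertical axis) for each of the 34 vessel-associated genes. Fabp4 and Aqp1 lie far to the left, at 0.49 and -0.38 on the vertical axis, and Ehd3 and Mcam lie low, at -2.66 and -1.68.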

How the data were processed

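Per the labels' protocols, biotinylated cRNA was made from total RNA of sorted cells and read on Affymetrix arrays. The deposited intensity values of 22690 probe sets are on a linear scale (5.29 to 25561), and RMA is named in the submitters' processing notes without version or settings. RMA compresses low signal and gives no detection call. log2 was taken of the deposited values. Of the probe sets, 20380 had 1 gene symbol, 691 several and 1555 none, and 64 were controls. Identifiers of 20351 were found in a RefSeq table of GRCm38.p6, which changed 0 symbols. Xist and Y-linked genes were left out. Each gene was read from its probe set with the highest mean, without a filter on dim genes.

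Genotype and set came from the titles. limma 3.58.1 in R 4.3.3 (lmFit, eBayes, no block, all 4 arrays) was fitted over all 12384 genes with Benjamini-Hochberg adjustment at 0.05, and was tested on simulated data. Both arrays of a set share a state label, so the set was read as pairing them, and models with a block were alternatives. Same-numbered arrays deviated from their group means with a correlation of 0.159 across genes. The members, the gene lists and the tests were chosen with earlier results of these data known. Named genes were all members, and of each other list those past the threshold plus up to 2 with the largest difference among genes whose higher group mean was above the limit. Nrp1, Vegfd, Csf1r, Fcer1g, Lpl, Slc2a4, Cd93, Nr2f2, Sparcl1, Il6, Cd34, Itga6, Tagln, Mylk, Lhx2, Nfatc1 and dim markers were named after their values were seen. Alternatives were averaging all probe sets of a gene, a second quantile normalization, median centring, a pseudocount of 16, a filter at percentile 40, a variance trend with robust fitting, the block, limits at percentiles 30 and 50, and leaving out each array.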

Additional observations from a re-analysis of the deposited data

Results flagged for a closer look

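Among the vessel-associated genes and the other genes named by the rule, the difference between genotypes had opposite signs in the sets for 4 vessel-associated genes and for the fat cell gene Cebpa, with 1 array per genotype and set, so that the difference between sets was not tested. Within set 1 and set 2, cKO minus WT was -0.043 and 0.10 for Sox17, 0.39 and -0.027 for Ehd3, -0.14 and 0.029 for Tm4sf1, 0.16 and -0.12 for Pdgfrb, and -0.16 and 0.66 for Cebpa. Sox17 and Pdgfrb were dim on all arrays. The unused probe sets of Sox17, Pdgfrb and Ehd3 did not change sign between the sets, and that of Tm4sf1 did. Itga6, named because the sort used it, also had opposite signs, at 0.50 and -0.025.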

How the results depend on the processing

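With all 4 arrays kept, the count of vessel-associated genes with every cKO array below every WT array ran from 24 to 26 over the alternatives. That of the pattern around the limit ran from 9 (limit at the 50th percentile) to 13. Leaving out arrays can only keep or raise either count, so settings with fewer arrays could not test these counts and are not included in the ranges. The median difference was -0.85 when all probe sets of a gene were averaged, -0.62 with a pseudocount of 16 and -1.31 without the cKO set 1 and WT set 2 arrays (added after seeing the data), and ran from -1.17 to -0.86 with each array left out in turn. Fabp4 differed by -3.26 with the mean of its probe sets, as 2 of them were dim, and Cdh5 by -0.74. Mcam and Ehd3 changed sign between genotypes with single arrays left out (-0.55 to 1.27 and -1.25 to 1.62), since their arrays split by set. Smaller differences also moved with single arrays, Eng from -0.64 to -0.21, Egfl7 from -0.84 to -0.092 and Lyve1 from 0.27 to 0.82, the first and second with a WT array left out and the third with a cKO array. Over all genes limma called 6 as lower and 2 as higher in cKO. These counts were 20 and 9 with a variance trend and robust fitting and 0 and 0 with a pseudocount of 16. They were 4 and 0 with the set as a replicate block, and 0 and 0 whichever array was left out, where fewer samples enter the fit. The cause of the other changes was not tested. Of the other listed genes, 1 was called as lower with the variance trend, Ptprb, and 0 as higher under any alternative. Cebpa, at 0.25 over all arrays, reversed to -0.059 without the WT set 2 array and ran up to 0.56 with another array left out. The filter at percentile 40 left 18 of the 34 genes and 52 of the 142 others, and called 0 of the others. Between sets limma called 0 genes under every alternative run, blocks included. No scanner files were used, so signal over background could not be judged, and values near the lowest intensities carry no order.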
